A study of Mus musculus with 12 samples.

Results

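The transcripts of the respiratory chain were read in RNA-sequencing libraries from the ascending aorta of the mouse, and the genes encoded in the nucleus were set beside those encoded in the mitochondrial genome. Members were chosen by gene name in the authors' gene list. Nuclear members carried the names of structural subunits of complex I (Ndufa, Ndufb, Ndufc, Ndufs and Ndufv), complex II (Sdha to Sdhd), complex III (Uqcr), complex IV (Cox4 to Cox8) and complex V, the ATP synthase (Atp5). Mitochondrial members were the protein-coding genes of the mitochondrial genome, named mt-. Pseudogenes and antisense transcripts were left out. This gave 95 members of 21954 genes in the list, 82 nuclear and 13 mitochondrial. Of the nuclear members, 37 belonged by name to complex I, 4 to complex II, 8 to complex III, 16 to complex IV and 17 to complex V, and the mitochondrial members were 7, 0, 1, 3 and 2 in the same order.

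Proximal and distal ascending aorta was taken from 6 mice at 2 months of age, 3 of the strain labelled Notch1.129S6+/- and 3 wildtype (WT) littermates, to ask why dilation in the heterozygous mice stays at the root. The 4 groups were proximal tissue of Notch1+/- mice, proximal tissue of WT mice, distal tissue of Notch1+/- mice and distal tissue of WT mice, with 3 libraries each and 1 mouse behind each library. Both pieces came from the same mice, so the 6 proximal and the 6 distal libraries share animals. Each library was whole tissue and was amplified from 10 ng of total RNA. Levels are RPKM, reads divided by the gene's length and the library's size, as the authors deposited them, so levels of different genes are compared per length.

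The respiratory chain passes electrons from complexes I and II through complex III to complex IV, cytochrome c oxidase, and complex V uses the proton gradient that this builds to make ATP. Most subunits are encoded in the nucleus and imported, while the mitochondrial genome encodes a small catalytic core, transcribed as long precursors from both strands and cut at the transfer RNAs. Complex II has nuclear subunits only. Several subunits of complex IV exist as tissue isoforms: Cox6a2, Cox7a1 and Cox8b are the forms of heart and skeletal muscle in rodents, and Cox7a1 and Cox8b are also made in brown fat, while Cox6a1, Cox7a2 and Cox8a are their broadly expressed counterparts.

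Total reads per library were 26518332 to 36742096, and reads worked back from the RPKM steps were found for all 95 members. A gene was tested where 3 or more libraries reached 1 RPKM, which kept 94 members; Cox6b2, the testis form of a complex IV subunit, did not pass and stayed at or under 1.09 RPKM. Levels under the detection limit carry a replacement value of 0.158 RPKM set by the authors. Differences are on the scale of log2(RPKM + 0.5), which understates the change of low genes. Notch1 itself stood at 2.20, 1.65 and 1.63 RPKM in proximal and 1.18, 1.85 and 1.51 RPKM in distal libraries labelled Notch1+/-, against 1.11, 1.19 and 1.56 RPKM in WT proximal and 1.12, 0.972 and 0.538 RPKM in WT distal libraries. In neither location was the mean lower in the libraries labelled Notch1+/- than in the WT libraries, so the genotype is used here only as a label. The 8 smooth muscle markers, which define the wall of the aorta, summed to 3008 to 4758 RPKM in proximal and 3081 to 5475 RPKM in distal libraries. The 25 heart muscle markers summed to 404 to 2251 RPKM in proximal and 79.6 to 528 RPKM in distal libraries, and no library lacked Myh6, the main myosin of the adult mouse heart. In whole tissue, fewer cells of a type and less RNA per cell cannot be told apart.

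The heart isoforms of complex IV were the members that differed most between proximal and distal tissue. Cox6a2 and Cox7a1 were higher in proximal tissue and passed the test, Cox8b had a fitted difference of like size and did not pass, and no mitochondrial member passed. The differences of the broadly expressed counterparts were smaller than the spread between libraries. Averaged over both genotypes, limma called 2 of 81 tested nuclear members higher and 0 lower at an adjusted p under 0.05, beside 0.775% of all 17297 genes tested called higher and 0.728% lower (1.5% in either direction). It called 0 of 13 mitochondrial members, and 0 of them had an unadjusted p under 0.05, against 20 nuclear members and 1924 of all 17297 genes tested.

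Cox6a2 (ENSMUSG00000030785, chr7:128205435-128206387, minus strand, mm10) encodes the muscle form of subunit VIa. It stood at 56.5, 69.7 and 80.0 RPKM in proximal libraries labelled Notch1+/- and at 24.2, 53.8 and 122 RPKM in WT proximal libraries. In distal tissue it stood at 17.3, 2.72 and 0.678 RPKM in libraries labelled Notch1+/- and at 1.63, 30.3 and 3.9 RPKM in WT libraries. Of the 6 proximal libraries, 5 lay above every distal library, and 5 of 6 distal libraries lay below every proximal one; the overlap is between WT proximal library 1 and WT distal library 2. The means were 67.7 ± 32.6 RPKM in proximal and 9.43 ± 11.9 RPKM in distal libraries (SD, n = 6 each). The fitted log2 difference, proximal minus distal, was 3.56 (SE 0.71, limma adjusted p = 0.0280), and proximal exceeded distal tissue in 6 of 6 mice.

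Cox7a1 (ENSMUSG00000074218, chr7:30184171-30186028, plus strand, mm10) encodes the muscle form of subunit VIIa. Its levels were 16.4, 6.11 and 14.7 RPKM in proximal libraries labelled Notch1+/- and 5.90, 15.9 and 43.2 RPKM in WT proximal libraries. Distal libraries labelled Notch1+/- had 2.66, 0.339 and 0.634 RPKM, and WT distal libraries had 3.04, 10.6 and 1.42 RPKM. Here 4 of 6 proximal libraries lay above every distal one, and WT distal library 2 was again the distal library with the highest level. The log2 difference was 2.51 (SE 0.53, limma adjusted p = 0.0374), with proximal above distal tissue in 6 of 6 mice.

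Cox8b (ENSMUSG00000025488, chr7:140898943-140900446, minus strand, mm10) encodes the muscle form of subunit VIII. It was measured at 18.0, 19.2 and 13.2 RPKM in proximal libraries labelled Notch1+/- and at 10.8, 14.6 and 37.6 RPKM in WT proximal libraries. Distal libraries labelled Notch1+/- had 5.20 and 2.38 RPKM and, in mouse 3, the replacement value of 0.158 RPKM, and WT distal libraries had 6.49, 22.5 and 0.637 RPKM. Only 1 proximal library lay above every distal one, since WT distal library 2 exceeded 5 of them. The log2 difference was 2.33 (SE 0.67, limma adjusted p = 0.143), and proximal exceeded distal tissue in 5 of 6 mice, with WT mouse 2 the exception. In Notch1+/- mouse 3 the distal level is the replacement value, so no ratio is given for that mouse.

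These levels rested on 8 to 1452 reads for Cox6a2, 2 to 275 for Cox7a1 and 4 to 238 for Cox8b where it was detected. The distal levels are the thinly covered ones: distal tissue of Notch1+/- mouse 3 held 8 reads of Cox6a2 and 4 of Cox7a1. Of the exon bases of Cox6a2, 10.3% lie opposite an exon of Itgad, an integrin gene, and the amplification kit named in the labels keeps no strand, so those reads cannot be told apart. Cox7a1 and Cox8b overlapped no other gene in GENCODE M21, and none of the 3 shared a stretch of 50 bases with another annotated transcript.

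The 2 calls depended on which libraries were in the fit. Leaving out 1 library at a time gave 0 to 5 called members, and the 2 calls remained without proximal library 1 of WT or distal library 1 of the Notch1+/- label. Over all 17297 genes tested, the 12 fits called 82 to 149 higher and 59 to 108 lower, with 149 and 74 without WT distal library 2. Without WT distal library 2, the distal library with the most Myh6, 5 members were called: Cox6a2 (adjusted p = 0.00671), Cox7a1 (0.0172), Cox6b1 (0.0241), Cox4i2 (0.0359) and Cox8b (0.0429) by limma. That library held the highest distal level of all 5, so leaving it out widens their differences by construction and lends these calls no support. Without any 1 of the other 9 libraries no member was called, and the adjusted p of Cox6a2 reached at most 0.0778 and that of Cox7a1 at most 0.10. The fitted difference stayed at 3.11 to 4.12 for Cox6a2, 2.16 to 2.86 for Cox7a1 and 1.75 to 2.84 for Cox8b across these 12 fits.

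**Figure D1:**
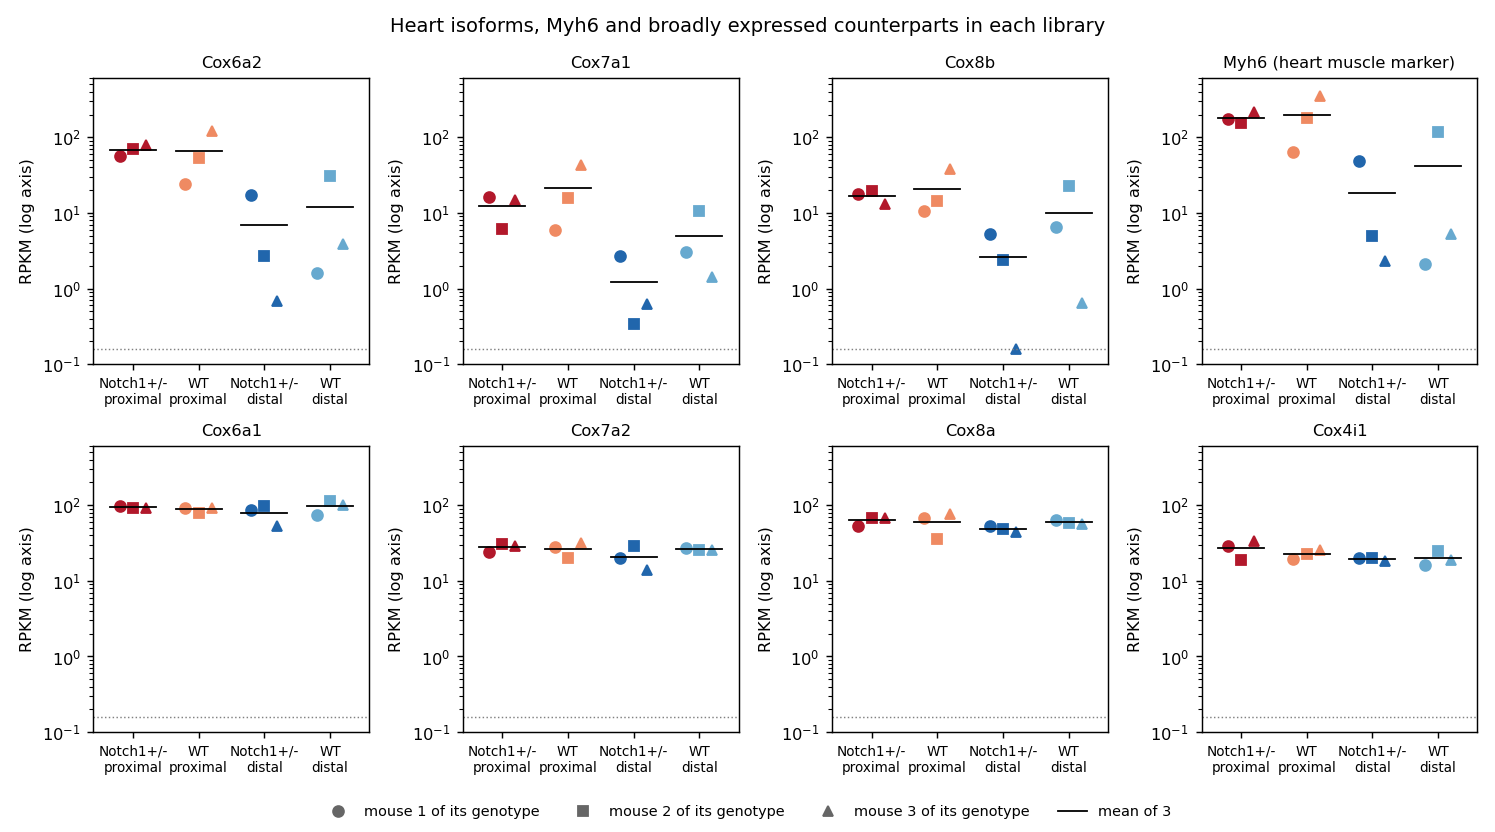
Levels of Cox6a2, Cox7a1, Cox8b, Myh6, Cox6a1, Cox7a2, Cox8a and Cox4i1 in each of the 12 libraries, in RPKM on a log axis, by group; symbols mark the mice, black lines the mean of 3 libraries and the dotted line the replacement value of 0.158 RPKM. The upper panels spread over 2 to 3 orders of magnitude with WT distal library 2 the highest distal library in each, while the lower panels stay within a narrow band in all 4 groups.

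Heart muscle markers moved with the heart isoforms. Of 25 heart muscle markers 14 were called higher in proximal tissue by limma and 25 were fitted higher, with a median log2 difference of 2.89. Myh6 stood at 174, 155 and 213 RPKM in proximal libraries labelled Notch1+/- and 63.2, 179 and 354 RPKM in WT proximal libraries, against 48.0, 4.93 and 2.31 RPKM in distal libraries labelled Notch1+/- and 2.12, 119 and 5.30 RPKM in WT distal libraries. Within 3 of the 4 groups the libraries fell in the same order for Myh6 and Cox6a2, and the distal libraries with the most Myh6 (WT distal library 2 and distal library 1 of the Notch1+/- label) also had the most Cox6a2. With the mean log2 level of the 25 markers as a covariate in the limma fit, the location difference was -0.07 for Cox6a2, 0.02 for Cox7a1 and -0.11 for Cox8b, and 0 members were called. In the same fit 3 of all 17297 genes were called, against 260 without the covariate. The score itself differs by location, since all 25 of its markers were fitted higher in proximal tissue. This fit therefore cannot separate heart muscle content from location, and the cause was not tested. Without both of those distal libraries, a comparison chosen after seeing the data, the log2 differences were 4.65 for Cox6a2, 3.14 for Cox7a1 and 3.18 for Cox8b. Since those libraries hold the highest distal Cox6a2, leaving them out widens the difference by construction, and no test is given.

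Other tissues that use these isoforms were measured through their markers. Of 14 skeletal muscle markers 3 were in the gene list, and they summed to 11.4 to 26.8 RPKM in proximal and 6.92 to 14.6 RPKM in distal libraries. Brown fat markers, 5 of 9 in the list, summed to 5.71 to 17.6 RPKM in proximal and 13.6 to 32.6 RPKM in distal libraries. Dio2 alone stood at 1.08 to 4.93 RPKM in proximal and 8.65 to 28.8 RPKM in distal libraries. It made up most of every distal sum, so the sums do not speak for the list as a whole. Of the 3 tested, 1 was fitted higher in proximal tissue, Ppargc1a (log2 difference 0.73, limma adjusted p = 0.0992). Ucp1, the uncoupling protein that defines brown fat, was at the replacement value in 4 of 6 proximal libraries and reached 1.29 RPKM in the others, against at most 4.69 RPKM in distal libraries. Of the tested markers limma called Dio2 of brown fat and Pi16 of fibroblasts lower and Emcn of endothelium higher in proximal tissue, and none of 7 fat, 7 macrophage or 8 smooth muscle markers. The median log2 difference was 0.73 for fat (sums of 20.6 to 111 RPKM in proximal and 6.79 to 124 RPKM in distal libraries), 0.81 for macrophages (52.7 to 89.5 and 16.4 to 68.0 RPKM), 0.09 for endothelium, -0.19 for fibroblasts and -0.02 for smooth muscle. The part of these cell types in the isoform levels was not tested.

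The 5 genes whose levels were most like the mean log2 level of the 3 heart isoforms over the 12 libraries were Myl2 (Pearson r 0.97), Tnni3 (0.97), Tnnc1 (0.97), Gm29015 (0.97) and Ttn (0.97). Myl2 is the ventricular myosin light chain, Tnni3 and Tnnc1 are troponin subunits of heart muscle and Ttn is titin. These correlations describe libraries that share mice, and no p is given. Over the same libraries the other 78 tested nuclear members had a median r of 0.60 with the heart isoforms, led by Ndufa3 (0.85) and Cox6b1 (0.85), and the 13 mitochondrial members had a median r of 0.19.

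The broadly expressed counterparts ran nearly level across the groups. Cox6a1, the nuclear member with the highest mean level, averaged 91.0 ± 6.0 RPKM in proximal and 87.6 ± 21.8 RPKM in distal libraries (SD, n = 6 each), with a log2 difference of 0.09 (SE 0.16, limma adjusted p = 0.900). Cox7a2 averaged 27.1 ± 4.45 RPKM in proximal and 23.6 ± 5.51 RPKM in distal libraries, and Cox8a 61.3 ± 14.4 RPKM in proximal and 54.1 ± 7.08 RPKM in distal libraries. The log2 difference was 0.22 for Cox7a2 (SE 0.18, limma adjusted p = 0.742) and 0.15 for Cox8a (SE 0.17, limma adjusted p = 0.847). Cox7a2l, a relative of Cox7a2 that joins complexes III and IV into supercomplexes, differed by 0.17 (SE 0.18, limma adjusted p = 0.835). Of its stretches of 50 bases, 13.8% also occur in another annotated transcript.

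As a share of each pair, the heart form took a large part of the RPKM in proximal tissue. Cox6a2 made up 36.6%, 42.9% and 46.5% of Cox6a2 plus Cox6a1 in proximal libraries labelled Notch1+/- and 21.0%, 40.3% and 56.8% in WT proximal libraries. In distal tissue the share was 16.8%, 2.73% and 1.27% in libraries labelled Notch1+/- and 2.12%, 21.0% and 3.69% in WT libraries. Cox7a1 made up 16.6% to 57.9% of Cox7a1 plus Cox7a2 in proximal and 1.17% to 29.0% in distal libraries. Cox8b made up 13.9% to 33.1% of Cox8b plus Cox8a in proximal and 0.352% to 28.1% in distal libraries. In all 3 pairs the distal library with the highest share was WT distal library 2.

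The bases upstream of the start sites are shown for both kinds of isoform, so that heart forms and counterparts can be read side by side. The sequences are those of RefSeq (GRCm38.p6), read 5′ to 3′ on the gene's strand and ending at the base before the start, or before the gene's outermost exon where that begins earlier (Cox6a1). Cox6a2 had no entry. Capitals mark matches to 3 motifs searched on both strands: CANNTG (E-box, the site of muscle and other basic helix-loop-helix factors), CCGGAAG (ETS core, bound by GABPA) and TATAAA; no matches share bases in the sequences shown.
Cox7a1 (chr7:30183921-30184170, plus strand): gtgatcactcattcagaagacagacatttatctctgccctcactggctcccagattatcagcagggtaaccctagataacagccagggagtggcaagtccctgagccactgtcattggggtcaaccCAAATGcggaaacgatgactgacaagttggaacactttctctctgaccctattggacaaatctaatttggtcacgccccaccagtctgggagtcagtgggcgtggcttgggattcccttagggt
Cox7a2 (chr9:79759854-79760103, minus strand): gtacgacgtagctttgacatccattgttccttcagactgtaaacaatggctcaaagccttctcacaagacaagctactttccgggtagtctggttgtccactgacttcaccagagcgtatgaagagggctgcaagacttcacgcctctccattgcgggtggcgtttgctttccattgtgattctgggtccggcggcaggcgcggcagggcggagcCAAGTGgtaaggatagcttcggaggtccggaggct
Cox8b (chr7:140900447-140900696, minus strand): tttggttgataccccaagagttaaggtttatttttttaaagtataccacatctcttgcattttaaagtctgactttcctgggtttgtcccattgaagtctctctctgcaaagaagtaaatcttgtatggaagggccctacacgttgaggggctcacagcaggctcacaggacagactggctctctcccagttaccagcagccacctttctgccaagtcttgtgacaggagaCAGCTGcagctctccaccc
Cox8a (chr19:7217617-7217866, minus strand): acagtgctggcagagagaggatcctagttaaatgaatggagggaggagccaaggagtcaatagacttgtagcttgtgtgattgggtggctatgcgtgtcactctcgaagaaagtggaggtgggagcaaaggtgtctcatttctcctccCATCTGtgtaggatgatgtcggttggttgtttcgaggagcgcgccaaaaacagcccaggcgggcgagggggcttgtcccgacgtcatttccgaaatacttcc
Cox6a1 (chr5:115348982-115349208, minus strand): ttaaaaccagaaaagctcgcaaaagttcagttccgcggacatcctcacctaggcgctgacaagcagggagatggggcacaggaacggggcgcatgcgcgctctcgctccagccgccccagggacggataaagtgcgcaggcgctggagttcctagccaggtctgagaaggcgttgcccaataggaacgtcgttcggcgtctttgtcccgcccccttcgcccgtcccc

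Cox7a1, Cox7a2, Cox8b and Cox8a each held 1 CANNTG match, at bases -124 to -119, -35 to -30, -19 to -14 and -102 to -97 from the start, and neither of the other motifs. The stretch of Cox6a1 held none of the 3, so it stands in lower case throughout. Of 70 promoters of 65 nuclear members that matched by symbol, 60% held CANNTG, 17.1% CCGGAAG and 8.57% TATAAA. Of all 32851 RefSeq promoters, read over the same 250 bases, 66.2% held CANNTG, 6.91% CCGGAAG and 12.4% TATAAA. A match describes letters in this window, and binding was not measured.

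Other genes of complex IV had smaller fitted differences, and none of them passed the test. Cox4i2, the lung-enriched and oxygen-sensitive form of subunit IV, stood at 2.03, 1.86 and 3.92 RPKM in proximal libraries labelled Notch1+/- and at 4.31, 1.67 and 2.54 RPKM in WT proximal libraries. Distal libraries labelled Notch1+/- had 0.956, 0.704 and 0.585 RPKM and WT distal libraries 1.05, 2.48 and 0.219 RPKM. WT distal library 2 alone reached the proximal range; the log2 difference was 1.17 (SE 0.33, limma adjusted p = 0.125), on 3 to 68 reads. The broadly expressed Cox4i1 averaged 24.7 ± 5.56 RPKM in proximal and 19.6 ± 2.82 RPKM in distal libraries (log2 difference 0.31, SE 0.16, limma adjusted p = 0.526).

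Cox6b1, the somatic form of subunit VIb, had 35, 42.9 and 42.1 RPKM in proximal libraries labelled Notch1+/- and 32.8, 29.4 and 46.2 RPKM in WT proximal libraries. Its distal levels were 22.4, 25.4 and 23.2 RPKM in libraries labelled Notch1+/- and 20.5, 40.1 and 20.1 RPKM in WT libraries. All distal libraries but WT library 2 lay below every proximal library (log2 difference 0.61, SE 0.18, limma adjusted p = 0.164). Ndufa4, named for complex I and now counted as a subunit of complex IV, averaged 26.2 ± 6.08 RPKM in proximal and 16.5 ± 3.88 RPKM in distal libraries (log2 difference 0.65, SE 0.20, limma adjusted p = 0.163). Its relative Ndufa4l2, a target of hypoxia signalling, stayed at or under 1.52 RPKM in every library. Cox7b, a small nuclear subunit, differed by 0.27 (SE 0.20, limma adjusted p = 0.707).

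Across all complexes, most nuclear members were fitted a little higher in proximal tissue. Of 81 tested, 76 had a positive log2 difference, with a median of 0.30, while the median of all 17297 genes was -0.05. By complex the medians were 0.28 for complex I (33 of 37 positive), 0.26 for complex II (4 of 4), 0.32 for complex III (8 of 8), 0.31 for complex IV (15 of 15) and 0.29 for complex V (16 of 17). These members are not independent of each other, and apart from Cox6a2 and Cox7a1 none passed the test on its own. The median stayed at 0.21 to 0.35 under the other scalings, but with the heart muscle score as a covariate it was -0.19, with 22 of 81 positive. That score itself differs by location, so the fit cannot separate heart muscle content from location.

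In complex I the highest level belonged to Ndufb9, an accessory subunit, at 57.0 RPKM over the 12 libraries (log2 difference 0.40, SE 0.19, limma adjusted p = 0.472), and the lowest difference to Ndufv3, a subunit of the NADH-binding module, at -0.20 (SE 0.20, limma adjusted p = 0.807). In complex II the flavoprotein gene Sdha, the iron-sulfur gene Sdhb and the membrane anchors Sdhc and Sdhd differed by 0.25 (SE 0.23), 0.48 (SE 0.20), 0.21 (SE 0.19) and 0.28 (SE 0.27). Sdhb averaged 8.92 ± 2.02 RPKM in proximal and 6.33 ± 2.04 RPKM in distal libraries (limma adjusted p = 0.379). In complex III the small subunits Uqcr11, Uqcr10 and Uqcrb differed by 0.46 (SE 0.17, limma adjusted p = 0.273), 0.29 (SE 0.16) and 0.17 (SE 0.17). Of the stretches of 50 bases in Uqcrb 25.4% also occur in other annotated transcripts, and 15.6% of those in Ndufb9, so their reads are uncertain.

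In complex V, Atp5b, the catalytic beta subunit, had the highest mean at 76.7 RPKM and a log2 difference of 0.37 (SE 0.17, limma adjusted p = 0.463). Atp5o, the stalk subunit that confers oligomycin sensitivity, differed most at 0.63 (SE 0.20, limma adjusted p = 0.191), but 35.6% of its exon bases lie opposite another gene and its reads are uncertain. Atp5g1, Atp5g2 and Atp5g3 encode the same ring subunit behind different import signals, and they differed by 0.48 (SE 0.20), 0.24 (SE 0.17) and 0.37 (SE 0.23). Of the stretches of 50 bases in Atp5g2, 38.3% also occur in other annotated transcripts, and 10.2% of those in Atp5g1. Their reads are uncertain as well. Atp5sl, which carries the family name without being a subunit of the enzyme, differed by -0.00 (SE 0.24).

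**Figure D2:**
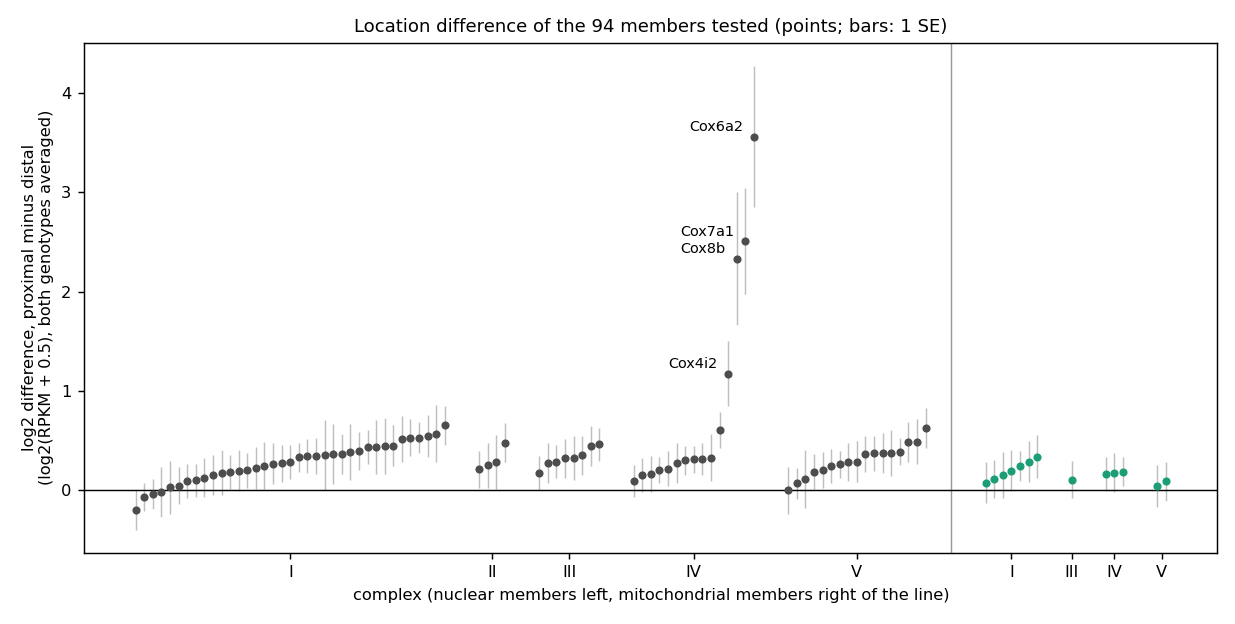
Fitted log2 difference, proximal minus distal and averaged over both genotypes, for the 94 members tested, ordered within each complex; points are estimates, bars 1 SE, with nuclear members in grey left of the line and mitochondrial members in green right of it. Cox6a2 (3.56), Cox7a1 (2.51), Cox8b (2.33) and Cox4i2 (1.17) stand above the other members, which lie between -0.20 and 0.65.

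All 13 mitochondrial members were fitted higher in proximal tissue, by 0.04 for mt-Atp8 to 0.34 for mt-Nd6, with a median of 0.16 and no unadjusted p under 0.05. The complex I genes of the mitochondrial genome had a median of 0.19, mt-Cytb of complex III 0.10, the complex IV genes 0.17 and the complex V genes 0.06. The median was positive under every scaling but varied in size: 0.03 with quantile normalization (8 of 13 positive), 0.07 with a constant sum over all genes (10 of 13), 0.13 with a constant sum outside the mitochondrial genome (13 of 13) and 0.22 with scaling by the median of ratios (13 of 13). Leaving out 1 library moved it further: it was 0.01 without distal library 2 of the Notch1+/- label, with 7 of 13 positive, and 0.30 without distal library 3, with 13 of 13 positive.

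Per kilobase, the mitochondrial transcripts stood far above the nuclear ones and far apart from each other. The highest was mt-Atp8, at 27771 to 73794 RPKM, followed by mt-Atp6 with a mean of 21763 RPKM, both subunits of the ATP synthase and read from 1 shared transcript. The catalytic subunits of cytochrome c oxidase, mt-Co1, mt-Co2 and mt-Co3, averaged 14149, 18937 and 4150 RPKM. The complex I genes ran from mt-Nd3, at 396 RPKM, through mt-Nd6 (4033), mt-Nd5 (6314), mt-Nd2 (8502), mt-Nd1 (8525) and mt-Nd4l (9807) to mt-Nd4 (14349), and mt-Cytb, the cytochrome b of complex III, averaged 9596 RPKM. For comparison, the median nuclear member averaged 11.3 RPKM.

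Some of these levels are uncertain. Stretches of 50 bases that also occur in other annotated transcripts, among them nuclear copies of mitochondrial DNA, made up 100% of those in mt-Co2, 99.9% in mt-Co3, 99.5% in mt-Atp6, 98.8% in mt-Nd4l, 98.0% in mt-Nd3, 62.2% in mt-Nd4 and 51.1% in mt-Co1, and how reads with several matches were counted is not given in the sources used here. In mt-Atp8, 21.1% of the bases also lie in mt-Atp6, whose reading frame it overlaps. Both strands of the mitochondrial genome are transcribed across mt-Nd6, and the kit keeps no strand. The levels of all the genes named in this paragraph against their neighbours are therefore uncertain, those that stand high as well as mt-Nd3, mt-Co3 and mt-Nd6.

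The proportions among the mitochondrial genes were held while their sum varied. Between the lowest and the highest library each gene's level differed by 1.91-fold to 3.01-fold, but its share of the summed RPKM of the 13 genes by only 1.10-fold (mt-Nd4) to 1.40-fold (mt-Co3). mt-Nd6, the only one encoded on the other strand, took 2.07% to 2.77% of the sum, but with no strand kept, reads of precursors from the opposite strand cannot be told apart from its own. mt-Co1 stood at 11070, 12816 and 15897 RPKM in proximal libraries labelled Notch1+/- and at 13615, 14859 and 21286 RPKM in WT proximal libraries. Its distal levels were 10279, 8886 and 19786 RPKM in libraries labelled Notch1+/- and 13090, 13904 and 14296 RPKM in WT libraries. The groups overlap widely.

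Summed over the set, the 82 nuclear members stood at 1386, 1458 and 1655 RPKM in proximal libraries labelled Notch1+/- and at 1254, 1116 and 1918 RPKM in WT proximal libraries. Distal sums were 1053, 1184 and 863 RPKM in libraries labelled Notch1+/- and 1001, 1444 and 1205 RPKM in WT libraries. The mean was 1465 ± 288 RPKM in proximal and 1125 ± 200 RPKM in distal libraries (SD, n = 6 each), and 1361 ± 243 against 1106 ± 184 RPKM without the 3 heart isoforms, so the difference in means was a little larger than the larger SD and the ranges overlapped.

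The 13 mitochondrial members summed to 136263, 155562 and 181684 RPKM in proximal libraries labelled Notch1+/- and to 152683, 189102 and 222762 RPKM in WT proximal libraries. Distal sums were 144605, 100524 and 241152 RPKM in libraries labelled Notch1+/- and 172136, 154397 and 163058 RPKM in WT libraries. Both the lowest and the highest library were thus distal libraries of the Notch1+/- label. The mean was 173009 ± 31233 RPKM in proximal and 162645 ± 45839 RPKM in distal libraries (SD, n = 6 each), a difference smaller than either SD.

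The ratio of the mitochondrial to the nuclear sum was 98.3, 107 and 110 in proximal libraries labelled Notch1+/- and 122, 169 and 116 in WT proximal libraries. It was 137, 84.9 and 279 in distal libraries labelled Notch1+/- and 172, 107 and 135 in WT distal libraries. The ratio was tightest in proximal tissue of Notch1+/- mice, at 105 ± 5.92 (SD, n = 3), and widest in their distal tissue, where the highest library was 3.29 times the lowest. The same 2 libraries, distal libraries 2 and 3 of the Notch1+/- label, set the low and the high end for complex I (74.0 and 242), complex III (67.1 and 204), complex IV (68.4 and 205) and complex V (146 and 478).

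**Figure D3:**
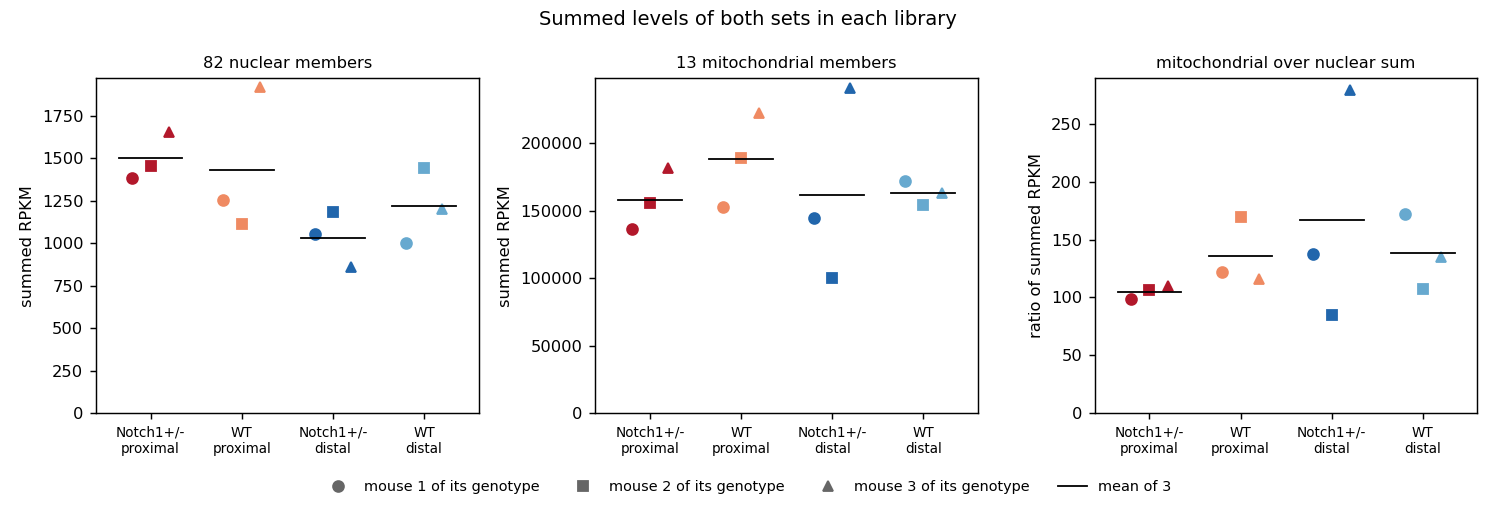
Summed RPKM of the 82 nuclear members, summed RPKM of the 13 mitochondrial members and the ratio of both sums in each of the 12 libraries, by group; symbols mark the mice and black lines the mean of 3 libraries, all axes starting at 0. Distal library 3 of the Notch1+/- label has the lowest nuclear sum (863), the highest mitochondrial sum (241152) and the highest ratio (279).

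The libraries in which members reached their extremes differed between the sets. Of 81 tested nuclear members, 41 were highest in WT proximal library 3, where 7.58% of all genes tested were highest, and 36 were lowest in distal library 3 of the Notch1+/- label, where 22.1% of all genes were lowest. All 13 mitochondrial members were lowest in distal library 2 of the Notch1+/- label, where 2.57% of all genes were lowest and 20.8% were highest, the largest share of any library. All mitochondrial genes together took 24.1% of its summed RPKM, the lowest share. Levels within a library share its reads, so low mitochondrial and high other levels cannot be told apart there. Of the 13, 8 were highest in distal library 3 of the Notch1+/- label and 5 in WT proximal library 3. In WT proximal library 3 the heart muscle markers also reached their highest sum (2251 RPKM), and in distal library 3 of the Notch1+/- label their lowest (79.6 RPKM); the part of those cells in the nuclear sums was not tested. No member had all 6 proximal libraries above or below all 6 distal ones, as 0.838% and 1.02% of all genes tested did.

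Within mice, the nuclear members were higher in the proximal piece in 5 of 6 animals and the mitochondrial members in 3 of 6. In Notch1+/- mice 1, 2 and 3 the median log2 difference of nuclear members was 0.34, 0.24 and 0.85, and that of mitochondrial members -0.05, 0.64 and -0.32. In WT mice 1, 2 and 3 it was 0.28, -0.33 and 0.47 for nuclear members and -0.15, 0.30 and 0.48 for mitochondrial members. The signs of the 2 sets matched in Notch1+/- mouse 2 and WT mouse 3 and were opposite in the other mice. WT mouse 2, whose distal piece held 119 RPKM of Myh6, was the animal in which 17 of 81 nuclear members were higher in proximal tissue; the median of all genes in that mouse was -0.26.

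**Figure D4:**
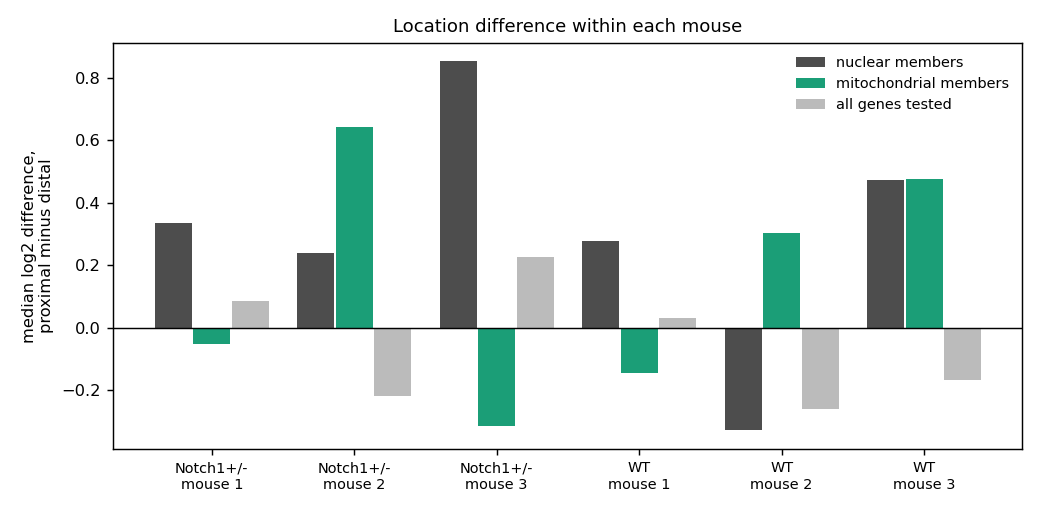
Median log2 difference, proximal minus distal, within each of the 6 mice over the 81 tested nuclear members, the 13 mitochondrial members and all 17297 genes tested. Bars for the nuclear members are positive in all mice but WT mouse 2 (-0.33), while bars for the mitochondrial members run from -0.32 to 0.64.

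By genotype, the location difference of the members was fitted separately in each arm. In libraries labelled Notch1+/-, limma called 0 of 94 members, where 0.254% of all genes were called (0.214% higher and 0.0405% lower); 78 of 81 nuclear members were fitted higher in proximal tissue with a median of 0.45, and 24 had an unadjusted p under 0.05. In WT mice it called 0 of 94 members, where 0.237% of all genes were called (0.116% higher and 0.121% lower); 59 of 81 nuclear members were fitted higher with a median of 0.16, and 4 had an unadjusted p under 0.05. Over all 17297 genes tested, 1240 had an unadjusted p under 0.05 in the Notch1+/- libraries and 1429 in WT. The nuclear median in WT varied with the scaling: it was 0.30 with the median of ratios (75 of 81 higher), 0.27 with quantile normalization (72 of 81), 0.08 with a constant sum outside the mitochondrial genome (51 of 81) and 0.02 with a constant sum over all genes (42 of 81). Under the same 4 scalings the median in the Notch1+/- libraries was 0.41, 0.38, 0.46 and 0.41, so the gap between the arms was narrowest with the median of ratios and quantile normalization. For mitochondrial members the medians were 0.10 (11 of 13 higher) in the Notch1+/- libraries and 0.22 (13 of 13) in WT. Leaving out 1 library turned the direction of 2 of these medians: without distal library 2 of the Notch1+/- label the mitochondrial one was -0.20 in the Notch1+/- libraries (-0.03 without their proximal library 3), and without proximal library 3 the nuclear one was -0.05 in WT. The 2 comparisons use different libraries but 1 shared estimate of spread.

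Cox6a2 differed between locations by 4.07 (SE 1.01, limma adjusted p = 0.188) in libraries labelled Notch1+/- and by 3.05 (SE 1.01, limma adjusted p = 0.394) in WT. For Cox7a1 the differences were 3.05 (SE 0.76) in libraries labelled Notch1+/- and 1.98 (SE 0.76) in WT, and for Cox8b 2.95 (SE 0.95) and 1.72 (SE 0.95) in the same order. The interaction, the location difference in Notch1+/- minus that in WT, was 1.02 (SE 1.43) for Cox6a2, 1.07 (SE 1.07) for Cox7a1 and 1.24 (SE 1.35) for Cox8b, each about 1 SE or less.

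Of the 81 nuclear members 74 had a positive interaction, with a median of 0.34, against 0.16 over all genes tested. With scaling by the median of ratios the nuclear median was 0.15 (62 of 81 positive), and leaving out 1 library gave 0.19 (without WT distal library 2) to 0.51 (without WT proximal library 3). All 13 mitochondrial members had a negative one, with a median of -0.14; 5 of 13 were positive with either constant-sum scaling and 3 with quantile normalization, and the median was 0.20 without distal library 3 of the Notch1+/- label. The limma fit called 0 members for the interaction, where 0% of all genes were called and 507 had an unadjusted p under 0.05. Ndufb10, an accessory subunit of complex I chosen after its values were seen, had the highest interaction at 1.30 (SE 0.57, unadjusted p = 0.0400, limma adjusted p = 1.0). It stood at 9.89, 14.0 and 22.2 RPKM in proximal libraries labelled Notch1+/- and 9.32, 9.05 and 19.1 RPKM in WT proximal libraries, against 8.36, 10.4 and 3.65 RPKM in distal libraries labelled Notch1+/- and 11.1, 17.4 and 15.0 RPKM in WT distal libraries.

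Compared by genotype within a location, no member passed. In proximal tissue, Notch1+/- minus WT, limma called 0 members and 0% of all genes (561 at an unadjusted p under 0.05); the median difference was 0.12 for nuclear members, with 60 of 81 higher in Notch1+/-, and -0.26 for mitochondrial members, with 0 of 13 higher. In distal tissue it called 0 members and 0% of all genes (524 at an unadjusted p under 0.05); the median was -0.20 for nuclear members, with 9 of 81 higher, and -0.12 for mitochondrial members, with 0 of 13 higher. The median of all genes tested was 0.11 in the proximal and -0.04 in the distal comparison, and scaling by the median of ratios, which removes that shift, gave a median of -0.00 for nuclear and -0.39 for mitochondrial members in proximal tissue. With quantile normalization 7 of 13 mitochondrial members were higher in distal tissue of Notch1+/-. The mitochondrial median there was 0.16 without distal library 2 of the Notch1+/- label. As deposited, the shift of each set was within the spread between libraries of a group (SD of the set median 0.25 and 0.26 in proximal and 0.31 and 0.44 in distal tissue, nuclear first). That spread was not computed after scaling by the median of ratios, so the -0.39 of mitochondrial members cannot be set against it.

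No heart isoform passed the genotype test in either location. In proximal tissue the differences, Notch1+/- minus WT, were 0.32 (SE 1.01) for Cox6a2, -0.48 (SE 0.76) for Cox7a1 and -0.12 (SE 0.95) for Cox8b. In distal tissue they were -0.70 (SE 1.01), -1.55 (SE 0.76) and -1.36 (SE 0.95) in the same order, with WT distal library 2 the highest of the WT libraries for all 3.

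The other genes of mitochondrial energy supply were read from lists chosen with earlier results in view, and limma called none of them by location; those named here were picked after their values were seen. The 21 tested partners of the chain had a median log2 difference of 0.25, with 19 higher in proximal tissue. They were enzymes of pyruvate and fatty acid oxidation and the citric acid cycle, carriers and channels of the mitochondrial membranes, and a creatine kinase. Among them were Cpt1b, the muscle form of carnitine palmitoyltransferase, at 0.90 (SE 0.26, limma adjusted p = 0.143), Ckmt2, the mitochondrial creatine kinase of muscle and also a heart marker, at 2.06 (SE 0.83, limma adjusted p = 0.355), and Mdh2, malate dehydrogenase, at 0.58 (SE 0.19, limma adjusted p = 0.211). Cpt1a, the broadly expressed form, was at -0.44 (SE 0.24, limma adjusted p = 0.551).

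Assembly factors and regulators had medians on both sides of 0, and differences between lists were not tested. The median log2 difference was -0.02 for 12 genes of complex I assembly and its acyl carrier subunit Ndufab1, and 0.24 for 8 genes of complex II and III assembly and the cytochromes. For 21 genes listed with complex IV and V assembly, among them Usmg5, a small subunit of complex V, it was 0.08. It was 0.02 for 8 regulators of mitochondrial biogenesis, among them Ppargc1a, the coactivator that drives the programme, at 0.73 (SE 0.19, limma adjusted p = 0.0992) and Nrf1, a transcription factor of many nuclear respiratory genes, at 0.24 (SE 0.16, limma adjusted p = 0.660). For 13 genes that copy and transcribe the mitochondrial genome the median was -0.04, with Tfam, its main packaging factor, at -0.01 (SE 0.18, limma adjusted p = 0.993). The 24 mitochondrial ribosomal and transfer RNA genes had a median of 0.28, with 19 higher, and all mitochondrial genes together took 24.1% to 43.7% of a library's summed RPKM.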

How the data were processed

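Gene levels were RPKM values that the authors deposited for 12 libraries, with gene positions and IDs in the same table. The submitters' processing notes name the genome build mm10 and the tools TopHat2 (2.1.0), Bowtie2 and R (3.2.2). Per the labels' protocols, cDNA was amplified from 10 ng of RNA with a kit that keeps no strand, and sequenced as paired 50-base reads. Per the file headers, levels below a library's detection threshold, labelled as the RPKM of 10 reads, were replaced by the authors with the mean threshold of 0.158 RPKM. The replacement made up 9.78% of values. The threshold was a single RPKM value per library (0.136 to 0.189 RPKM) for all genes. A level that was kept can therefore rest on fewer than 10 reads, as for Cox7a1, Cox8b and Cox4i2. How reads with several matches were handled is not given in the sources used here.

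Genes with at least 1 RPKM in at least 3 libraries (17297) were tested on log2(RPKM + 0.5) with limma 3.58.1 (trend) in R 4.3.3, as 1 model of 4 group means, 2-sided, with Benjamini-Hochberg adjustment over all genes tested and a threshold of 0.05. Fold changes on this scale understate the change of low genes. The procedure was tested on simulated data. Reads behind the members' values were worked back from the steps of the RPKM values (tolerance 0.001); they were used to show depth, and no count test was run. The same levels in another column order, and the correlations between libraries, were deposited in 24 further columns that were not used.

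The authors' sample IDs tie each proximal to a distal library of the same mouse. The deviations of same-mouse libraries from their group means had correlations of 0.0731 to 0.216 over the 6 mice. Libraries of different mice with the same number in each genotype had -0.0265 to 0.249, so these correlations do not set same-mouse libraries apart. Keeping the mouse as a block was an alternative. The libraries of a group are separate mice, so p-values between genotypes within a location measure the spread between mice. The main fit treats the 12 libraries as independent, though both pieces came from the same 6 mice. Its p-values for location and interaction therefore do not measure the spread of the difference within mice.

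Members and gene lists were chosen with earlier results of these data known. The members named are the heart isoforms, their counterparts and other isoform genes, complex II, the mitochondrial members, those called, and in each complex the nuclear member with the highest mean and with the largest and smallest location difference; others are named as chosen after their values were seen. Likeness names the 5 genes most like the heart isoforms. Alternatives were other pseudocounts, filters and scalings, the mouse block, fits of only the groups compared, a covariate for heart muscle (the mean log2 level of its 25 markers) and leaving out each library. Overlaps and shared stretches of 50 bases were read from GENCODE M21 (GRCm38), and promoters from RefSeq (GRCm38.p6).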

Additional observations from a re-analysis of the deposited data

Results flagged for a closer look

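In the groups of 6 libraries by location, 10 of 90 sets of values had 1 library far from the others by Dixon's criterion. Chance flags about 1 in 20 where values are normally distributed. These were untransformed RPKM values, and the sets share libraries, so the count cannot be set against that rate. WT proximal library 3 stood apart upward for Cox7a1, at 43.2 RPKM where the next library had 16.4, and for Cox8b, at 37.6 RPKM where the next had 19.2. WT distal library 2 stood apart upward for 5 members: Cox7a1 at 10.6 RPKM (next 3.04), Cox8b at 22.5 RPKM (next 6.49), Cox4i2 at 2.48 RPKM (next 1.05), Cox6b1 at 40.1 RPKM (next 25.4) and Sdhb at 10.3 RPKM (next 6.77). These are the proximal and the distal library with the most Myh6 (354 and 119 RPKM), and also with the most fat markers (sums of 111 and 124 RPKM, next 41.7 and 47.7) and the most macrophage markers (89.5 and 68.0 RPKM, next 80.0 and 47.4). WT distal library 2 had the highest Ucp1 (4.69 RPKM) and Cidea (3.03 RPKM) of all libraries, both brown fat markers. The part of any of these cell types was not tested. WT proximal library 2 had the highest ratio of mitochondrial to nuclear sums in proximal tissue, at 169 where the next was 122, and the lowest Cox6a1, at 79.7 RPKM where the next had 91.1. WT proximal library 1 had the highest Atp5g2, at 9.33 RPKM where the next had 6.27. Of the stretches of 50 bases in Atp5g2, 38.3% also occur in other annotated transcripts, so its reads are uncertain.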

How the results depend on the processing

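The 2 members called for location, averaged over genotypes, were also 2 under both other pseudocounts, both other filters, all 4 other scalings and with the mouse as a replicate block. Over all genes tested, those fits called 92 to 188 higher and 84 to 153 lower. The block on replicate number left the member counts between genotypes at 0. Libraries with the same number in each genotype are different mice, and their correlations of -0.0265 to 0.249 span the range of same-mouse libraries. The count of members called for location was 0 with the heart muscle score as a covariate, and 0 to 5 when leaving out 1 library. Without both distal libraries with the most Myh6, chosen after seeing the data, it was 3, and 1 each (Cox6a2) in libraries labelled Notch1+/- and in WT, against 0 in both with all libraries. Of all 17297 genes tested, that fit called 103 higher and 55 lower averaged over genotypes. It called 45 higher and 3 lower in libraries labelled Notch1+/-, and 40 and 9 in WT. Leaving out the highest distal levels of Cox6a2 widens its difference by construction. Leaving out 1 library gave 0 to 0 calls in the other comparisons. With the heart muscle score the nuclear median was -0.19 averaged over genotypes, -0.078 in libraries labelled Notch1+/- and -0.26 in WT; the cause was not tested. Of 426 values recomputed for the sets 410 stayed within their spread or kept their call, and of 1084 for single genes 1006 kept direction and side of the threshold while 53 turned direction. That spread (SD of 0.25 to 0.49) exceeds most of the set medians, so a median that turned direction can still count as within it. Counts of 0 in comparisons where 0% of all genes were called also count as kept. The 410 is therefore no measure of robustness.

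With the heart muscle score, the location difference turned for Cox6a2 (-0.074), Cox8b (-0.11), Cox6a1 (-0.29), Cox7a2l (-0.18), Cox8a (-0.068), Cox4i1 (-0.19), Cox6b1 (-0.012), Cox7b (-0.43), Ndufa4l2 (-0.68), Atp5g1 (-0.29), Atp5g3 (-0.21), Atp5o (-0.079), Atp5b (-0.32), Sdha (-0.30), Sdhb (-0.29), Sdhc (-0.35), Ndufb9 (-0.26), Uqcrb (-0.14), Uqcr10 (-0.24), mt-Atp6 (-0.0633), mt-Co3 (-0.012) and mt-Nd4 (-0.0016), and in WT for Cox6a2 (-0.17), Cox7a1 (-0.24) and Cox8b (-0.45). A constant sum over all genes, which moved the median of all genes to -0.13, turned Cox6a1 (-0.000674), mt-Atp6 (-0.00845), mt-Atp8 (-0.055) and mt-Nd4 (-0.019). Quantile normalization turned mt-Atp6 (-0.077), mt-Atp8 (-0.10), mt-Nd2 (-0.039), mt-Nd4 (-0.080), mt-Nd4l (-0.018) and Atp5sl (0.020), and scaling by the median of ratios Atp5sl (0.037). Without both distal libraries with the most Myh6, mt-Atp8 (-0.0131) and Atp5sl (0.15) turned. Leaving out 1 library spanned -0.037 to 0.18 for Cox6a1, -0.0046 to 0.27 for Cox7a2l, -0.067 to 0.24 for mt-Atp6, -0.13 to 0.22 for mt-Atp8, -0.024 to 0.27 for mt-Cytb, -0.032 to 0.36 for mt-Nd2, -0.081 to 0.26 for mt-Nd4, -0.025 to 0.28 for mt-Nd4l and -0.15 to 0.17 for Atp5sl. Depth limits the distal levels of Cox7a1, Cox8b and Cox4i2, which rest on as few as 2, 4 and 3 reads.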
